A study of Bos taurus with 43 samples.

Results

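The 6 genes MYH1, ATP2A1, ACTN3, CASQ1, TNNC2 and TNNT3 encode proteins of the contractile and calcium machinery of fast-twitch skeletal muscle fibres. On the bovine oligonucleotide array used here, they were represented by every probe whose annotation named one of them. These were 7 of the 21475 gene probes, with 2 probes for MYH1 and 1 for each other gene. The probes were A_73_102524 and A_73_117636 for MYH1, A_73_102024 for TNNC2, A_73_109196 for TNNT3, A_73_120317 for ACTN3, A_73_116789 for ATP2A1 and A_73_119130 for CASQ1. All 7 were among the 16360 probes that passed the filter on dim signals, and none was saturated on any array.

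Muscle fibres contract when calcium released from the sarcoplasmic reticulum binds troponin on the thin filament and lets myosin heads pull on actin. Fast and slow fibres build this machinery from different members of the same gene families, and the balance between both fibre kinds varies among muscles, breeds and physiological states. MYH1 encodes the fast myosin heavy chain 2x and ACTN3 the alpha-actinin of the Z line of fast fibres. TNNC2 and TNNT3 encode the calcium-binding and the tropomyosin-binding subunits of fast troponin. ATP2A1 encodes the pump SERCA1, which returns calcium to the sarcoplasmic reticulum of fast fibres, and CASQ1 the calsequestrin that stores it there.

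The samples were biceps brachii muscle from 43 cattle, described as male in the methods, and each single-colour array held 1 animal, with the arrays spread over 19 slides. The 4 positive animals (S21, S54, S56 and S57) are labelled as suspected of corticosteroid treatment and were classed as positive in the study from thymus histology and dexamethasone in urine. The 21 unknown animals are labelled as of unknown treatment, and both groups came from slaughterhouse batches of animals 12 to 24 months old, mostly Charolais, Limousine or their crosses. The untreated controls were 5 cross-breed (Charolais × Limousine) bulls of 18 months (K7, K8, K10, K11 and K12) and 13 Holstein animals of 13 to 18 months. The unknown animals were further described by groups that the study drew on principal component plots of these arrays, and the group of each animal was read here from those plots: 10 animals of group B (29, 39, 50, 52, 60, 61, 76, 78, 79 and 81), 6 of group 4 (36, 37, 38, 49, 51 and 58) and 5 of group 2 (263, 265, 266, 269 and 270), where groups 2 and 4 are both part of group A. These plots used the signals of the same arrays, so the 3 groups are given as ranges, with no test. Animal 76 lay with group 4 in one plot and with group B in the other, and is given with group B.

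Several arrays stood apart. The scanner software called 40.21% of spots well above background for animal 79 and 62.3% to 97.3% for the other 42 animals. The brightest spike-in RNA had a log2 signal of 12.66 to 13.32 in animals 29, 39, 52, 61 and 76, and of 16.77 to 17.96 in the other 38. ZFY, a Y-linked gene, had a log2 signal of 2.84 to 4.34 in group 4 and of 2.90 to 4.53 in group 2, against at least 5.47 in every other animal. Its signal still exceeded background clearly in 5 of 6 animals of group 4 and in 4 of 5 of group 2, and all animals are described as male. These 11 animals are the whole of groups 2 and 4, so the values of group B are those of the unknown animals without them.

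The muscle identity of the samples was checked first. ACTA1 (skeletal actin), CKM (creatine kinase), DES (desmin) and TCAP (titin cap) were well above background on all 43 arrays, with log2 signals from 15.42 to 18.30 for ACTA1 and from 15.07 to 16.91 for CKM. Genes that record position along the body went in separate ways. HOXA9 (probe A_73_116160) lay between 1.41 and 6.23 in the positive animals, group B and group 4, and between 9.50 and 10.94 in group 2 and both control groups. Another HOXA9 probe, A_73_101190, did not divide the animals in this way. It read 6.77 to 7.48 in the positive animals, well above background on all 4 arrays. Group B reached 7.87 and so overlapped group 2, which began at 7.70. HOXA9 probes A_73_119831 and A_73_120553 had means of 3.13 and 2.82 in the positive animals, against 10.93 and 6.59 in the cross-breed controls. HOXC6 ran the other way between the positive animals and the controls. It read 10.23 to 10.49 in positive muscle, against 3.19 to 4.78 for the cross-breed and 4.11 to 5.90 for the Holstein animals. Groups B (9.74 to 10.79) and 4 (10.26 to 10.82) lay with the positive animals. Group 2 (6.79 to 8.21) lay between these and the controls. All samples are labelled biceps brachii.

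MYH1 had the widest range of the 6 genes. At probe A_73_102524, the log2 signal was 8.99 in S54, 10.46 in S57, 11.29 in S56 and 15.30 in S21. It was 15.39 in K10, 15.57 in K12, 15.76 in K8, 16.01 in K7 and 16.11 in K11. All positive animals lay below all cross-breed controls, but S21 was only just below them, whereas the other 3 were far lower. With 75th percentile scaling the highest positive animal (15.61) was above the lowest control (15.42), as it was with normexp (15.94 against 15.38). The 13 Holstein controls ranged from 17.06 to 17.74 with a median of 17.32, and no Holstein animal was as low as a cross-breed control. The second probe, A_73_117636, read 7.56 in S54, 8.79 in S57, 9.41 in S56 and 13.68 in S21, and 16.43 to 17.73 in the cross-breed controls. The order of the 4 positive animals was the same at both MYH1 probes.

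Among the unknown animals, MYH1 was narrow in group 2 and wide in group B. At A_73_102524 group 4 ran from 12.70 to 14.56 (median 13.96) and group 2 from 14.82 to 15.16 (median 14.88), with no overlap. Group B was split within itself. Animals 61, 79, 60, 39 and 76 read 8.32, 10.38, 10.57, 10.71 and 11.10, and animals 78, 50, 29, 52 and 81 read 15.61, 16.45, 16.82, 17.22 and 17.49. Nothing lay in the gap of 4.51 on the log2 scale between them, and the highest animal of group B was 576-fold above the lowest. At A_73_117636 the gap was 5.30, between 8.70 (animal 60) and 14.00 (animal 78), and the highest was 1380-fold above the lowest. By contrast, the Holstein controls spanned 1.61-fold and 3.88-fold at the 2 MYH1 probes.

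TNNC2, the calcium sensor of fast troponin, was ordered much like MYH1. Its log2 signal was 11.50 in S54, 12.61 in S56, 13.62 in S57 and 15.13 in S21, and 17.08 in K12, 17.40 in K10, 17.89 in K11, 17.99 in K8 and 18.25 in K7. The positive animals again lay wholly below the controls. The Holstein controls read 17.88 to 18.56 (median 18.25). Group 2 (17.14 to 17.64, median 17.38) lay within the range of the cross-breed controls, and group 4 (14.01 to 17.12, median 14.85) lay below group 2, with only its highest animal close to it. In group B, animals 60, 79, 39, 61 and 76 read 10.77 to 13.12 and animals 78, 50, 29, 52 and 81 read 15.89 to 17.45.

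ATP2A1, the fast calcium pump, read 10.11 in S54, 11.73 in S56, 13.03 in S57 and 13.43 in S21. The cross-breed controls read 16.52 in K12, 16.98 in K10, 17.28 in K11, 17.52 in K8 and 17.76 in K7, and the Holstein controls 17.44 to 18.04 (median 17.75). All positive animals were thus below every control, and the control groups overlapped. Group 2 was narrow (16.53 to 16.90, median 16.59), group 4 was wide (11.79 to 16.04, median 13.62), and group B ran from 11.65 to 15.92 (median 13.03). No animal of group B or group 4 reached the lowest animal of group 2, except that group 4 did with loess over array pairs (16.39 against 16.15) and group B without normalization (16.39 against 16.34).

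ACTN3, the Z-line actinin, separated the sets more evenly. Its log2 signal was 12.21 in S54, 12.44 in S21, 12.89 in S56 and 13.71 in S57, against 15.69 in K12, 16.12 in K10, 16.14 in K11, 16.19 in K7 and 16.51 in K8. Here S21 was among the low animals. The Holstein controls (15.44 to 16.86, median 16.21) overlapped the cross-breed controls. The highest signals were those of group 2 (16.90 to 17.81, median 17.55), above all Holstein and cross-breed animals by a margin that did not hold under every scaling: group 2 overlapped the Holstein controls in the deposited value table and with the 75th percentile, normexp and no normalization. Group 4 (13.04 to 14.71, median 14.01) lay below all controls. Group B ran from 10.37 in animal 61 to 14.07 in animal 29.

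TNNT3, the tropomyosin-binding subunit, had another order. It was 10.60 in S21, 12.20 in S54, 12.23 in S56 and 12.35 in S57. In the cross-breed controls it was 13.56 in K10, 13.91 in K8, 14.12 in K11, 15.08 in K12 and 16.17 in K7. S21, the highest positive animal at MYH1, was the lowest one here. The Holstein controls, the highest set at MYH1, read only 11.92 to 14.91 (median 13.19) and overlapped the positive animals. Group 2 was again high (15.11 to 16.71, median 16.56), group 4 read 11.32 to 14.33 (median 12.36) and group B 10.33 to 12.75 (median 11.92).

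CASQ1, the calcium store, was the dim member. It was well above background on 2 of 4 positive, 4 of 5 cross-breed and 6 of 13 Holstein arrays, and in 13 of 21 unknown animals. The signal was 2.05 in S54, 2.40 in S21, 3.40 in S56 and 3.45 in S57, and 4.25 in K11, 4.30 in K10, 5.35 in K12, 5.73 in K8 and 5.81 in K7. Only S56 and S57 were well above background among the positive animals, and K11 was not. Group 2 (4.61 to 6.29) and group 4 (4.17 to 6.71) lay above the positive animals, though not under every scaling, and group B (2.61 to 4.52) overlapped them.

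**Figure D1:**
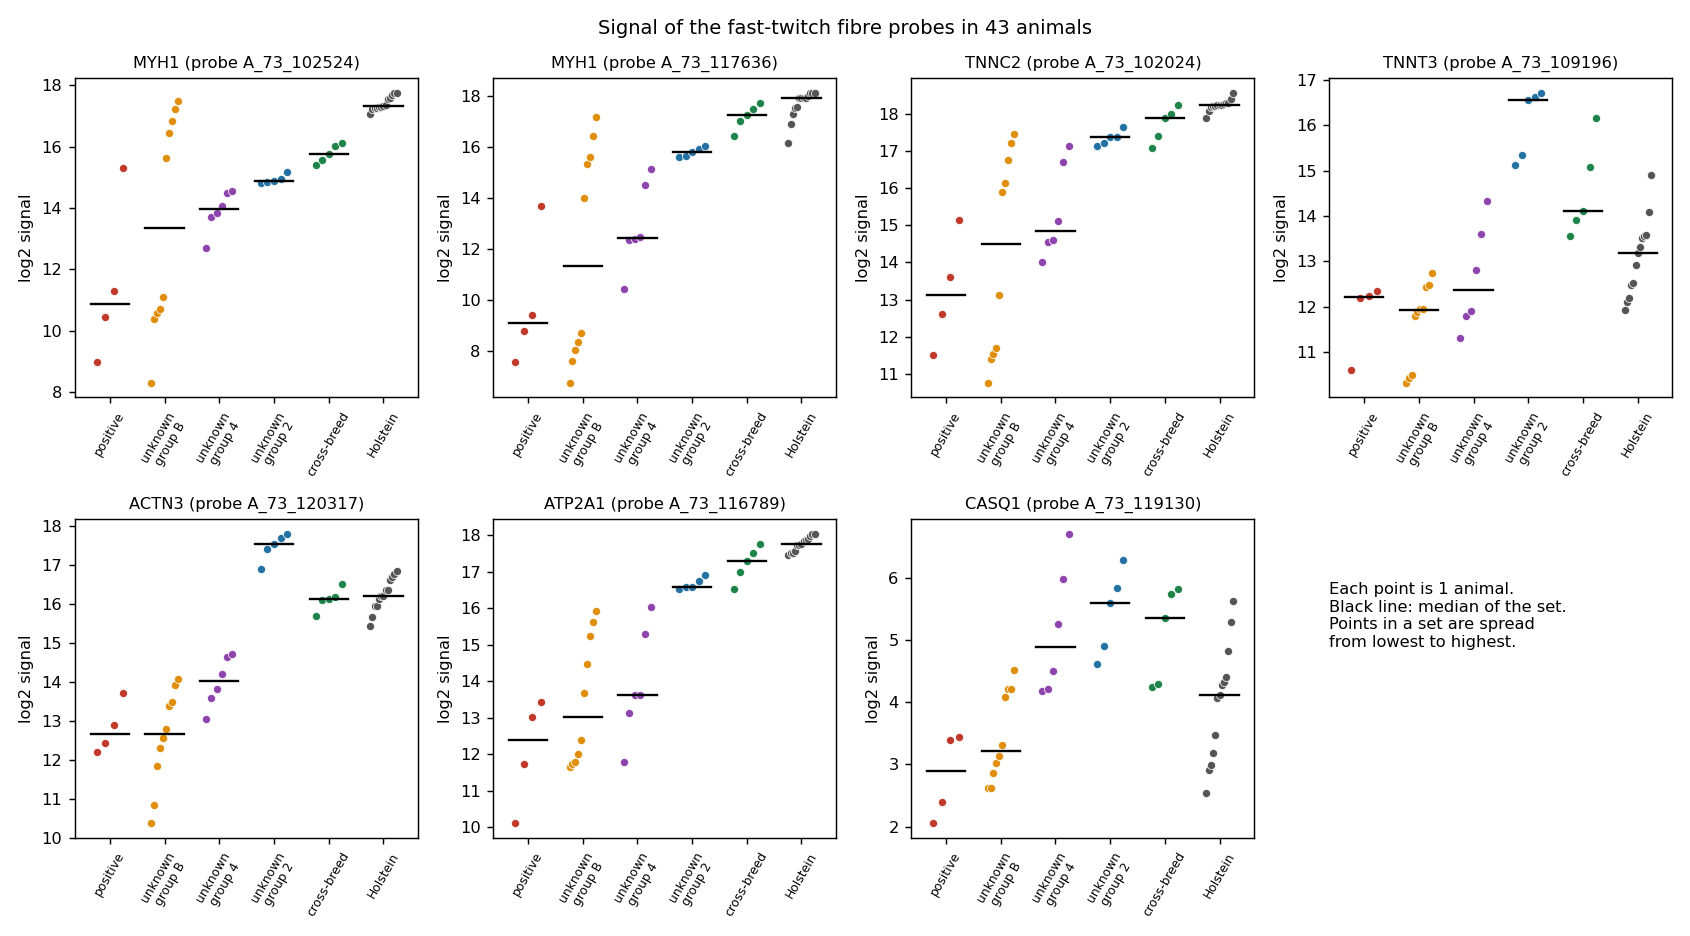
Normalized log2 signal (y axis) of the 7 probes of the 6 fast-twitch genes in the positive, unknown (groups B, 4 and 2), cross-breed and Holstein animals (x axis), with 1 point per animal and the set median as a black line. At TNNC2 and ATP2A1 the Holstein and cross-breed points are high and overlap. At MYH1 probe A_73_102524 these control sets are apart (15.39 to 16.11 and 17.06 to 17.74), and group B falls into points from 8.32 to 11.10 and from 15.61 to 17.49.

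Ordered by their medians, the sets ran from the positive animals through group B, group 4, group 2 and the cross-breed controls to the Holstein controls at both MYH1 probes, TNNC2 and ATP2A1. The ranges of the positive animals, group B and group 4 overlapped their neighbours in this order at all 4 of these probes, and those of group 4 and group 2 did not overlap at any of them. With loess over array pairs, groups 4 and 2 overlapped at all 4, and at TNNC2 they did so with quantile normalization and in the deposited value table too. Group 2 and the cross-breed controls overlapped at TNNC2 and ATP2A1 (not with quantile normalization or without normalization) and were apart at MYH1. Cross-breed and Holstein controls overlapped at TNNC2, ATP2A1 and MYH1 probe A_73_117636, and were apart at A_73_102524 except without normalization. Their order by median turned at TNNC2 with quantile normalization (18.20 in the cross-breed against 18.08 in the Holstein controls). Without normalization it turned at TNNC2 (18.565 against 18.47), ATP2A1 (18.035 against 17.91) and MYH1 probe A_73_117636 (17.97 against 17.86). At ACTN3 and TNNT3 group 2 was the highest set, overlapping its neighbour at TNNT3 and, under 4 of the 6 alternative scalings, at ACTN3. CASQ1 had overlapping neighbours throughout.

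The comparison of the positive animals with the cross-breed controls asks how muscle of animals classed as treated differs from untreated muscle of similar breed. All 7 member probes were lower in the positive animals by limma (adjusted p under 0.05 and at least 2-fold), where 13.8% of the 16360 probes tested were called lower and 14.4% higher. In all 7, every positive animal lay below every cross-breed control, as was so for 21.6% of all probes, but the ranges overlapped at MYH1 probe A_73_102524 with the 75th percentile or normexp, and at CASQ1 with the 75th percentile or no normalization. The median log2 change of the members was -4.26, against -0.03 over all probes.

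MYH1 probe A_73_117636 showed the largest fitted change of the 7 probes. Its mean log2 signal was 9.86 ± 2.66 (SD, n = 4) against 17.19 ± 0.50 (n = 5), a change of -7.33 (standard error 0.99, limma adjusted p = 1.79e-04). At A_73_102524 the change was -4.26 (standard error 0.99, adjusted p = 0.00474). Both MYH1 probes thus fell, by amounts that differed between them. Without S21 the changes were -8.60 and -5.53, and without S54 -6.56 and -3.42.

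The thin filament genes fell as well. TNNC2 was 22.7-fold lower (log2 change -4.50, standard error 0.60, adjusted p = 1.68e-04) and TNNT3 6.61-fold lower (-2.72, standard error 0.54, adjusted p = 0.00202). The change of TNNC2 was -5.14 without S21 and -3.93 without S54, and that of ATP2A1 -5.59 and -4.48. ACTN3 was 9.99-fold lower (-3.32, standard error 0.29, adjusted p = 1.26e-05), and it had the smallest error of the 7 probes. Of the calcium handling members, ATP2A1 was 35.1-fold lower (-5.13, standard error 0.59, adjusted p = 6.49e-05) and CASQ1 was lower too (-2.27, standard error 0.42, adjusted p = 0.00134), with no fold given since only 2 of 4 positive arrays were well above background. The change of CASQ1 rests on signals near background and was -0.52 with normexp background correction and -1.27 with 75th percentile scaling, where it was not called. The cross-breed arrays shared neither slides nor scanners with the positive ones, so the treatment class and the batch cannot be told apart in this comparison.

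**Figure D2:**
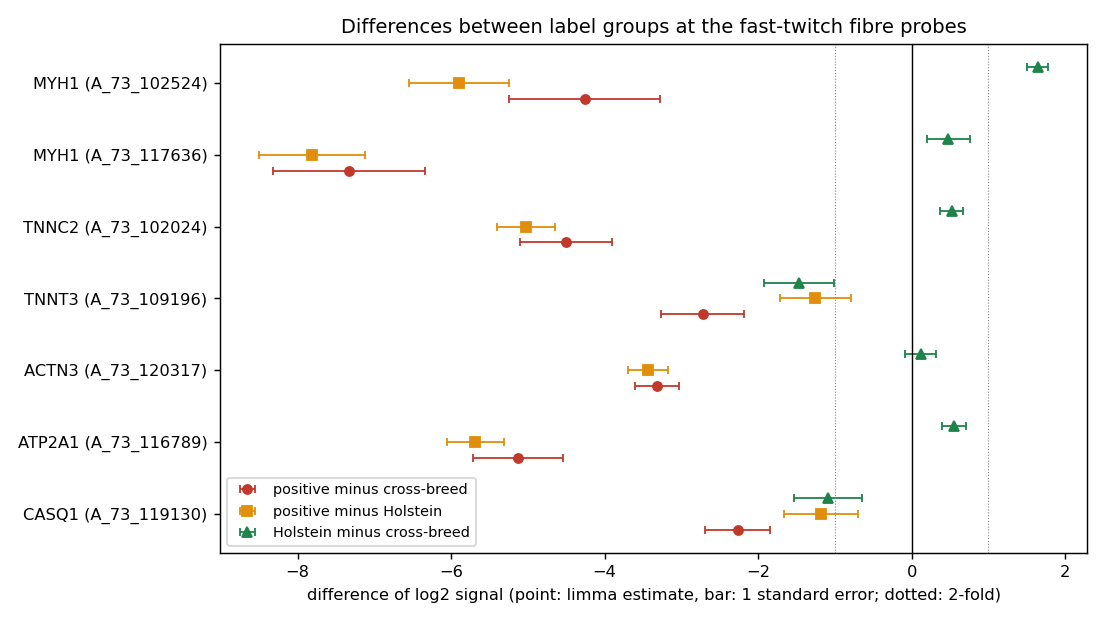
Differences of log2 signal (x axis) at the 7 member probes (y axis) for positive minus cross-breed, positive minus Holstein and Holstein minus cross-breed animals, as limma estimates with bars of 1 standard error and dotted lines at a 2-fold change. The differences of the positive animals from both control groups lie below 0 at all 7 probes, with the lowest values at MYH1 probe A_73_117636 (-7.33 and -7.81).

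Against the Holstein controls, the other untreated set, 6 of the 7 member probes were lower in the positive animals (limma; 9.41% of all probes were called lower and 8.4% higher). This comparison shares the positive arrays with the previous one. The log2 change was -7.81 (standard error 0.69, adjusted p = 2.38e-07) and -5.90 (standard error 0.65, adjusted p = 2.99e-06) at the MYH1 probes, -5.68 (standard error 0.38) for ATP2A1, -5.02 (standard error 0.38) for TNNC2 and -3.44 (standard error 0.27) for ACTN3. At these 5 probes every positive animal lay below every Holstein animal, as was so for 8.04% of all probes. Leaving out single positive animals moved MYH1 to between -9.08 and -7.04 (A_73_117636) and between -7.165 and -5.06 (A_73_102524). ATP2A1 then lay between -6.14 and -5.03, and TNNC2 between -5.66 and -4.45. TNNT3 changed less (-1.26, standard error 0.46, adjusted p = 0.0406), its ranges overlapped, and leaving out any single positive animal took its adjusted p to between 0.0507 and 0.201. It was also not called with slide (adjusted p = 0.0542) or scan day (adjusted p = 0.0752) as a random block. CASQ1 was not called (-1.18, standard error 0.48, adjusted p = 0.0647), but was called lower with loess over array pairs (-1.86, adjusted p = 0.00328) and quantile normalization (-1.49, adjusted p = 0.00936), and was 0.23 with the 75th percentile. No slide or scan day was common to these groups, and treatment class, breed, age and batch cannot be told apart between them.

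The 2 untreated groups were compared with each other to see how far these genes differ without treatment. Of the 7 member probes, limma called 1 higher and 1 lower in the Holstein controls, where 10.9% of all probes were called higher and 9.69% lower. MYH1 probe A_73_102524 was 3.12-fold higher in the Holstein animals (17.41 ± 0.22, SD, n = 13, against 15.77 ± 0.30, n = 5; adjusted p = 5.14e-08), with ranges apart as at 8.06% of all probes on that side. It was not called with all 43 arrays in 1 fit (adjusted p = 0.187) or without normalization (log2 change 0.99, under 2-fold), where the ranges overlapped. The other MYH1 probe was not called (log2 change 0.48, standard error 0.28, adjusted p = 0.168), and it was -0.06 with quantile normalization. TNNT3 was 2.77-fold lower in the Holstein animals (adjusted p = 0.0125), but without K7, its highest cross-breed animal, the adjusted p was 0.0599. TNNT3 also lost its call with all 43 arrays in 1 fit (adjusted p = 0.149) and without K7 and K8 (adjusted p = 0.0859). TNNC2 (0.52, adjusted p = 0.0084) and ATP2A1 (0.55, adjusted p = 0.00921) passed the test and stayed under 2-fold, but TNNC2 was -0.10 with quantile normalization, and without normalization TNNC2 was -0.04 and ATP2A1 -0.065. For ACTN3 the change was 0.12 (standard error 0.21, adjusted p = 0.666), and -0.20 with quantile normalization. CASQ1 was not called (-1.09, standard error 0.45, adjusted p = 0.0512), but was called lower in the Holstein animals with quantile normalization (-1.16), with the 75th percentile (-1.51), without normalization (-2.42), without K10 (-1.29) and without K11 (-1.30). Breed, age and batch cannot be told apart between these groups.

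Between the positive and the unknown animals, none of the 7 member probes was called by limma, and 2 had an unadjusted p under 0.05, as had 3888 of the 16360 probes. Of all probes, 0.0489% (8 probes) were called lower and 0% higher. The log2 changes ran from -3.21 (MYH1 probe A_73_117636, standard error 1.70) to -1.14 (TNNT3, standard error 0.99), and the ranges overlapped at all 7. Leaving out single positive animals moved MYH1 to between -4.48 and -2.44 (A_73_117636) and between -3.695 and -1.59 (A_73_102524). ATP2A1 then lay between -2.72 and -1.62, and TNNC2 between -2.70 and -1.49. Against the cross-breed controls, the 21 unknown animals were lower at 2 member probes, ATP2A1 (-2.86, standard error 0.84, adjusted p = 0.0156) and MYH1 probe A_73_117636 (-4.12, standard error 1.46, adjusted p = 0.0431), where 5.23% of all probes were called lower and 5.21% higher. Neither was called once slide or scan day entered as a random block (adjusted p from 0.0633 to 0.167), and MYH1 lost its call when any one cross-breed animal, or animal 79, was left out.

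The 4 positive animals shared their 2 slides with unknown animals 50, 78, 79 and 81, all of group B, which gives the only comparison of the positive animals within slides. On 1 slide, MYH1 (A_73_102524) read 11.29 in S56 and 10.46 in S57, and 16.45 in animal 50 and 17.49 in animal 81. On the other it read 15.30 in S21 and 8.99 in S54, and 15.61 in animal 78 and 10.38 in animal 79. High and low animals thus occurred on the same slide, and on the second slide in both label groups. With the slide as a term, limma called 0% of all probes higher and 0% lower, and 1873 of 16360 had an unadjusted p under 0.05. The log2 changes of the members were -3.48 (standard error 1.75) and -3.68 (standard error 1.87) for MYH1, -1.999 (1.23) for TNNC2, -1.87 (0.79) for ATP2A1, -0.46 (0.41) for CASQ1, -0.18 (0.21) for ACTN3 and 0.07 (0.52) for TNNT3. Only ATP2A1 had an unadjusted p under 0.05, and no adjusted p was below 0.427. Leaving out single animals moved the changes to between -5.26 and -2.74 and between -5.52 and -2.83 at the MYH1 probes, -3.23 and -1.40 for TNNC2, -2.69 and -1.36 for ATP2A1 and -0.35 and -0.02 for ACTN3. The lowest values came without S21 for MYH1 and ATP2A1 and without animal 79 for TNNC2, and the highest at these probes without S54 or animal 81.

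The split of group B at MYH1 was followed by some of the other members. The 5 animals with the highest MYH1 signal at A_73_102524 (29, 50, 52, 78 and 81) were also the highest 5 at MYH1 probe A_73_117636, TNNC2, ATP2A1 and ACTN3, and 4 of them were among the highest 5 at TNNT3. At CASQ1 only 1 of them was. The gap between the fifth and the sixth animal was 2.77 on the log2 scale at TNNC2 and 1.29 at ATP2A1, but 0.23 at ACTN3 and 0.06 at TNNT3. The widest gap lay elsewhere at ACTN3 (8 animals above it and 2 below) and at TNNT3 (7 above and 3 below). How many of all probes had the same highest 5 animals was not examined. Of the 5 animals with a dim spike-in RNA, 2 were among the 5 animals high at MYH1 and 3 were not. Animals 78 and 79 lay on 1 slide, and 52, 60 and 61 on another, so that animals from both sides of the gap shared slides. Whether fewer fast fibres or less transcript per fibre goes with a low signal cannot be told apart in whole muscle.

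**Figure D3:**
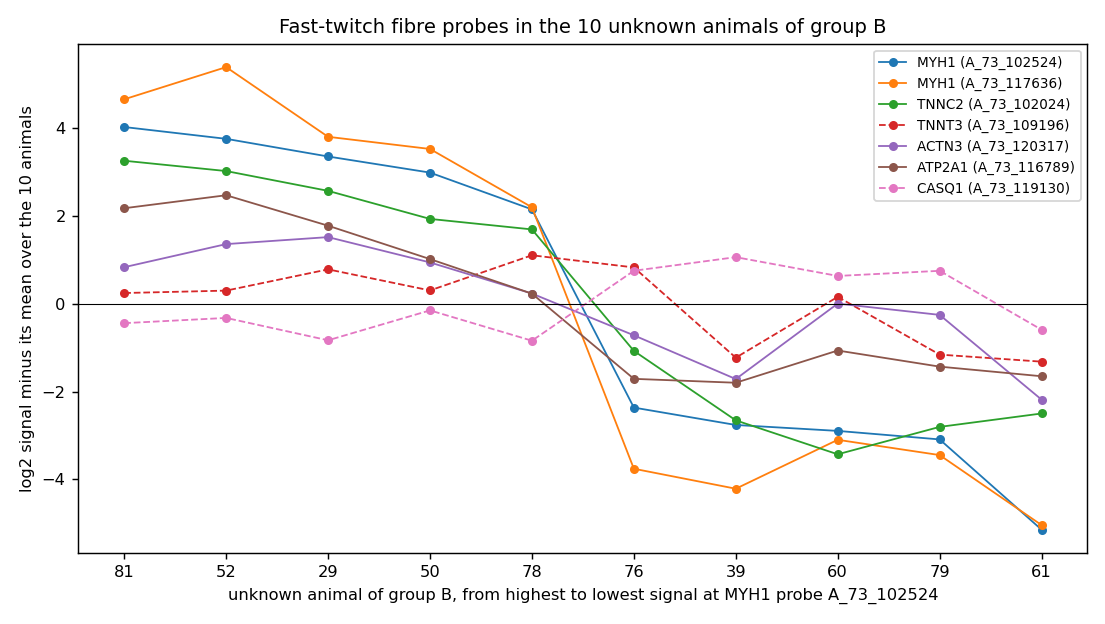
Log2 signal of each member probe minus its mean (y axis) in the 10 unknown animals of group B (x axis), ordered by MYH1 probe A_73_102524, with 1 line per probe and dashed lines for TNNT3 and CASQ1. The lines of MYH1, TNNC2 and ATP2A1 drop between animals 78 and 76, by 4.51 at MYH1 probe A_73_102524, while CASQ1 does not.

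Groups 2 and 4 of the unknown animals shared 1 slide, which held animals 36 and 58 of group 4 and animal 269 of group 2. ACTN3 read 14.21 in animal 36 and 13.59 in animal 58, against 17.81 in animal 269. ATP2A1 read 13.63 and 11.79, against 16.90, and CASQ1 read 6.71 and 5.26, against 6.29.

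Other genes of the fast sarcomere were counted from a list of 9 genes with 10 probes. In the positive animals against the cross-breed controls, 4 were called lower, none higher, and the median log2 change was 0.11. MYBPC2, the fast myosin-binding protein C, was 65.1-fold lower (adjusted p = 1.16e-04), TPM1, the alpha-tropomyosin, 39.1-fold lower (adjusted p = 5.76e-05) and MYLPF, the fast regulatory light chain, 10.3-fold lower (adjusted p = 4.64e-05). MYOZ3, a Z-disc protein of fast fibres, was 4.16-fold lower (adjusted p = 1.9e-05). At MYBPC2, TPM1 and MYLPF, the highest 5 animals of group B were the same 5 as at MYH1, with gaps of 3.59, 2.18 and only 0.16 on the log2 scale to the sixth animal. The remaining 6 probes were not called, among them MYOZ1 (log2 change -0.04, standard error 0.20) and, named after its values were seen, MYL1, the fast essential light chain (0.70, standard error 0.17). The listed fast genes thus did not move together.

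MYH4, the gene of the fast myosin heavy chain 2b, is given here because of its values, outside the rule for naming genes. Its signal lay between 13.97 and 14.25 in positive muscle, and was 13.46 to 14.45 in group B, 10.67 to 12.24 in group 4 and 8.22 to 9.32 in group 2. The cross-breed controls read 13.29 to 14.52 and the Holstein controls 10.47 to 13.50. Group 2, the highest set at ACTN3 and TNNT3, was thus the lowest set at MYH4, and the 10 animals of group B were close together. The fold between positive and cross-breed animals was 1.20 (adjusted p = 0.36), and MYH4 was 3.56-fold higher in the positive than in the Holstein animals (adjusted p = 0.00557). MYH genes are close copies of each other, and cross-hybridization between them was not tested.

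Of 15 probes of 12 genes of the triad and of calcium handling, 7 were lower in the positive animals than in the cross-breed controls and none was higher (median -0.85). Against the Holstein controls, only 2 were lower in the positive animals and none was higher (median -0.28). The untreated Holstein animals were also lower than the cross-breed controls at 5 of these probes and higher at 1 (median -0.41). JPH2, which holds the triad membranes together, was 4.05-fold lower (adjusted p = 4.12e-05), RYR1, the calcium release channel, 2.94-fold lower (adjusted p = 5.96e-05) and CACNB1, a subunit of the voltage sensor, 2.89-fold lower (adjusted p = 7.38e-05). ASPH was 3.07-fold lower at 1 of its 3 probes and 2.49-fold lower at another. PVALB, the calcium buffer parvalbumin, was singled out for its values in the controls: it was 23.1-fold higher in the Holstein than in the cross-breed animals (adjusted p = 8.41e-07) and 18.7-fold lower in the positive than in the Holstein animals (adjusted p = 4.22e-06). The positive and the cross-breed animals overlapped at PVALB, with means of 6.84 and 6.53.

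Of 13 probes of 12 slow counterparts, 5 were higher and 1 lower in the positive animals than in the cross-breed controls (median 0.70). MYL3, a slow light chain, was 4.22-fold higher (adjusted p = 2.61e-04), MYL6B 2.17-fold higher (adjusted p = 0.00107) and TNNT1, the slow partner of TNNT3, 2.14-fold higher (adjusted p = 3.9e-04). CASQ2, the slow and cardiac calsequestrin, was 3.75-fold lower (adjusted p = 0.0465), with a signal of 6.11 in S21 and of 9.63 to 10.06 in the other 3 positive animals. The cross-breed controls read 10.23 to 11.42, so much of this fold came from S21. In the Holstein controls MYL3 was 7.67-fold higher than in the cross-breed controls (adjusted p = 4.3e-09), a comparison in which MYH1 probe A_73_102524 was higher too.

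**Figure D4:**
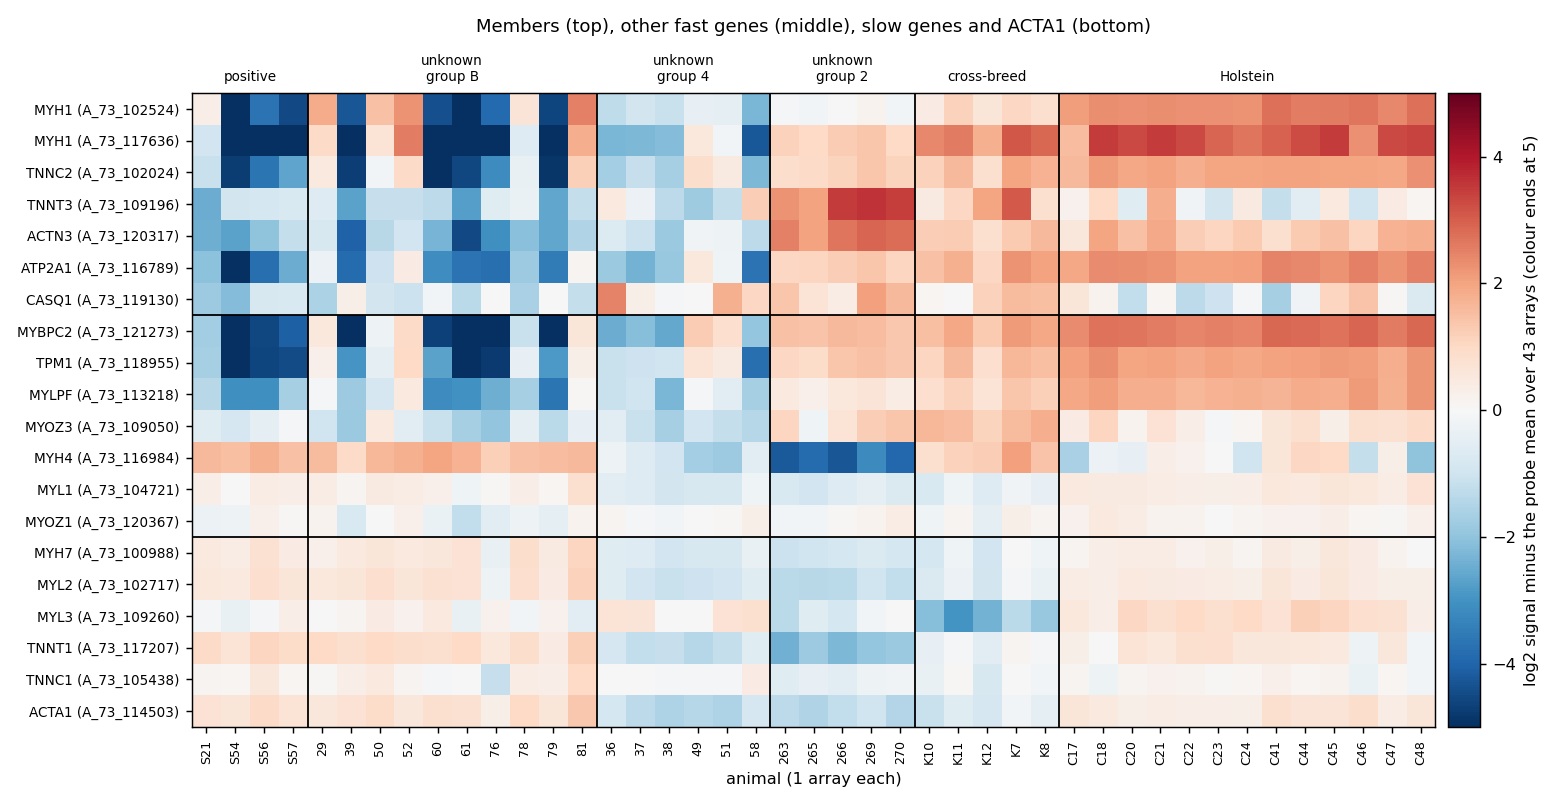
Log2 signal minus the mean of each probe over 43 arrays (colour, ending at 5) for the 7 member probes (top), other fast genes (middle), and slow genes with ACTA1 (bottom), with 1 column per animal and sets divided by black lines. Animals 39, 60, 61, 76 and 79 of group B are blue at MYH1, TNNC2, ATP2A1, MYBPC2, TPM1 and MYLPF, other animals of group B are blue at some of these only, and MYH4 is lowest in group 2 (8.22 to 9.32).

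Regulators of fibre type were counted over 15 probes of 11 genes, of which 2 were higher and 7 lower in the positive animals than in the cross-breed controls (median -0.85). Against the Holstein controls, 1 of the 15 was higher and 3 lower in the positive animals (median -0.20). In the Holstein against the cross-breed animals, 2 were higher and 3 lower (median -0.65). PPARGC1A, a coactivator that favours oxidative fibres, was higher at both of its probes (3.51-fold and 2.80-fold, adjusted p = 8.63e-06 and 1.26e-05). Means at these probes were 14.15 and 8.28 in the Holstein, 13.31 and 8.085 in the positive and 11.50 and 6.60 in the cross-breed animals. NFATC1, which carries calcineurin signals to the nucleus, was 3.42-fold lower at 1 of 2 probes (adjusted p = 3.57e-05). At that probe the means were 5.06 in the positive, 5.18 in the Holstein and 6.84 in the cross-breed animals. PPP3CA, the catalytic subunit of calcineurin, was 2.87-fold lower at probe A_73_114042 (adjusted p = 5.17e-04), and TBX15, a factor of glycolytic fibres, 3.28-fold lower (adjusted p = 8.52e-05). The Holstein means at PPP3CA (11.59) and TBX15 (9.98) lay between those of the positive (10.71 and 8.61) and the cross-breed animals (12.24 and 10.32). Of 11 probes of 8 genes common to all skeletal fibres, 1 was higher and 2 lower (median -0.18). ACTA1 was 2.62-fold higher, NEB (nebulin) 23.7-fold lower at 1 of 3 probes and TTN (titin) 2.77-fold lower at 1 of 2.

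Markers of other cell types differed between the same groups. Of 4 adipocyte probes tested (of 5), 3 were higher in the positive animals than in the cross-breed controls: FABP4, CIDEC (17-fold) and ADIPOQ. In the cross-breed controls FABP4 was well above background on 4 of 5 arrays (1.76 in K12, 4.61 to 6.45 in the others) and ADIPOQ on 1 of 5, so no fold is given for these genes. The summed adipocyte signal, of which FABP4 was the brightest, lay between 10.22 and 11.41 (log2) in positive muscle, against 6.26 to 7.99 for the cross-breed and 8.10 to 12.25 for the Holstein animals. The cross-breed controls lay below all other animals, and the ranges of the positive and the Holstein animals overlapped. LEP, the adipocyte hormone leptin, did not pass the filter on dim signals. Of 6 fibroblast probes tested (of 7), COL1A1 (5.14-fold), COL1A2 (3.75-fold) and COL3A1 (3.43-fold) were lower and DCN was higher at 1 of 2 probes (3.09-fold). VWF was the 1 of 3 endothelial probes called (2.91-fold higher), HBB the 1 red blood cell probe tested (of 2) and also higher (well above background on 4 of 5 cross-breed arrays), and ACTG2 the 1 of 3 smooth or cardiac muscle probes tested (of 4) and lower (2.10-fold). None of 5 leukocyte probes was called, and neither was MYH3, the 1 of 2 immature fibre probes tested. The part of these cell types in the member signals was not tested.

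HOXA9 probe A_73_116160 was set beside the member mean, the mean of the 7 member probes after each was centred over the 43 arrays. In the 20 animals with a low signal at this probe the mean ran from -4.49 to 0.42, and in the 23 animals with a high signal from 1.03 to 2.05. The ranges did not overlap, with 0.42 in animal 52 and 1.03 in K10 as the nearest values. The 20 animals were exactly the positive animals, group B and group 4, so this restates the difference between the sets. How many other probes separate these animals was not examined. By set, the positive animals ran from -4.14 to -1.51, group B from -4.49 to 0.42, group 4 from -1.64 to -0.01, group 2 from 1.08 to 1.85, cross-breed animals from 1.03 to 2.05 and Holstein animals from 1.16 to 1.98. Between positive and cross-breed animals, HOXA9 was lower at this probe (adjusted p = 5.13e-07) and HOXC6 higher (adjusted p = 8.11e-07). No fold is given for them, since HOXA9 was well above background at this probe on 1 of 4 positive arrays and HOXC6 on 2 of 5 cross-breed arrays. At HOXA9 probe A_73_101190, well above background on all arrays of both groups, the positive animals were 2.66-fold lower (adjusted p = 3.35e-04). HOXA9 was also called lower by limma at A_73_119831 (adjusted p = 1.02e-06) and A_73_120553 (adjusted p = 1.11e-05). The part of the sampled body region in the member signals was not tested.

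**Figure D5:**
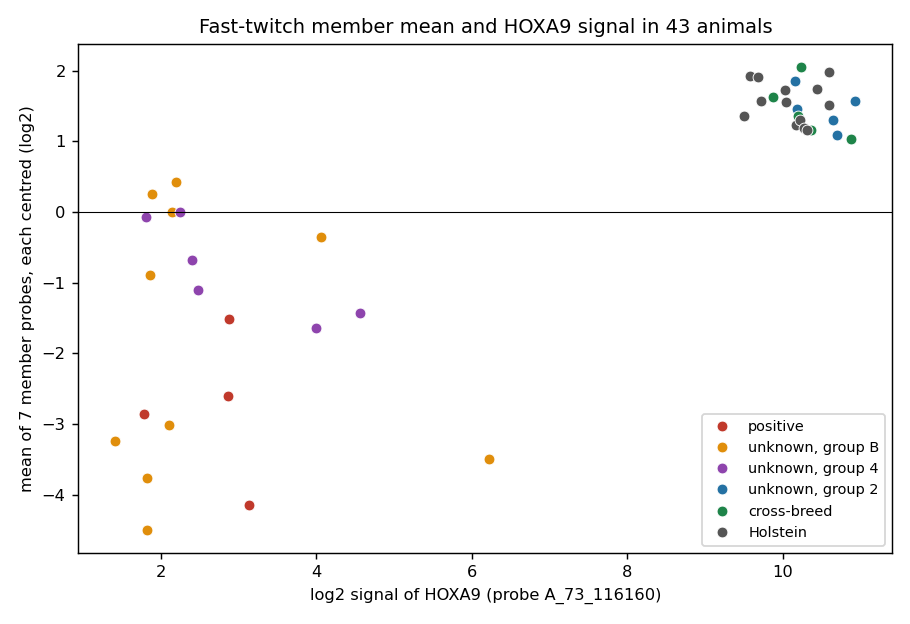
Mean of the 7 centred member probes (y axis, log2) against the log2 signal of HOXA9 probe A_73_116160 (x axis), with 1 point per animal coloured by set. The 23 animals at 9.50 or more at this probe lie between 1.03 and 2.05, and the 20 others between -4.49 and 0.42.

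The genes whose signal followed the member mean most closely were named from 13610 named probes by Pearson's r within the 21 unknown and within the 13 Holstein animals, as a description. The unknown animals fall into separate groups, which weigh on r. The 6 genes with the highest lower value of both were named, each by its probe with the highest such value. They included PFKFB4 (r = 0.80 and 0.82), a regulator of glycolysis, PPP3CA (probe A_73_114042, 0.84 and 0.79) and MLXIP (0.82 and 0.79), a glucose-sensing transcription factor. The others were CADM1 (0.78 and 0.80), PKM (0.83 and 0.76), the glycolytic pyruvate kinase, and PC (0.76 and 0.84), the pyruvate carboxylase. Another PPP3CA probe, A_73_114322, was ordered otherwise in the unknown animals. Its medians were 10.08 in group B, 8.42 in group 4 and 9.125 in group 2, whereas the member mean had medians of -1.95, -0.90 and 1.46. The most opposed were ARPC1A (-0.80 and -0.83), ESRRG (-0.80 and -0.85), a nuclear receptor of oxidative muscle, M6PRBP1 (-0.81 and -0.79) and METRN (-0.79 and -0.82). PKM, for example, read 12.26 to 13.47 in positive muscle, 15.16 to 15.86 for the cross-breed animals and 15.95 to 16.87 for group 2. Each member is part of the mean and correlates with it in part for that reason. With this, r was 0.91 and 0.84 for ACTN3, 0.75 and 0.76 for TNNT3, 0.95 and 0.56 for MYH1 probe A_73_117636, 0.95 and 0.50 for TNNC2 and 0.95 and 0.35 for ATP2A1. It was 0.84 and 0.19 for MYH1 probe A_73_102524, and CASQ1 had the lowest r in the unknown animals (0.33 and 0.55).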

How the data were processed

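The authors amplified total RNA, hybridized the labelled cRNA to single-colour Agilent bovine arrays and deposited scanner output per spot, a processed intensity already corrected for background by Feature Extraction (versions 9.1.3.1, 9.5.1.1 and 9.5.3.1 per the file headers). Their value table, also deposited, holds intensity per spot after cyclic loess by the authors and was used as an alternative. Here, log2 intensities were normalized by cyclic loess over 43 arrays and averaged over the spots of a probe, without outlier spots. Probes under a log2 signal of 4 on at least 30 arrays (5115 of 21475) were left out. The limits follow the methods, which do not state the scale, so the probes kept are not the study's own set, and every share of all probes refers to the 16360 kept here. Probes were named through RefSeq (assembly ARS-UCD2.0, names only) or the files' own annotation, and 4346 of 21475 had no name. Label groups were compared with limma 3.58.1 in R 4.3.3 (two-sided, Benjamini-Hochberg), and a probe was called at an adjusted p under 0.05 and a change of at least 2-fold. The shared-slide comparison had the slide as a term. The fits were tested on simulated data. Other normalizations, background correction, filters, blocks by slide or scan day, a common fit and the omission of single arrays were tried as alternatives. Positions are not given because the files name no genome build. Depth does not apply to arrays, and precision is limited by the number of arrays. Each array held 1 animal per the labels. The members, gene lists and tests were chosen with earlier results of these data known. From each list, up to 4 probes called in the positive against the cross-breed or the shared-slide comparison were named by size of change, with any called against the sign of the list's median. Genes like the member mean were the 6 with the highest smaller r and the 4 with the lowest larger r.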

Additional observations from a re-analysis of the deposited data

Results flagged for a closer look

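Of 82 groups of 4 to 10 animals that were examined for a lone sample, 4 (4.88%) held one by Dixon's criterion, where chance alone flags about 1 in 20 groups. TNNT3 was 10.60 in S21 and 12.20 to 12.35 in the other 3 positive animals, so that the animal with the highest MYH1 signal of its group had the lowest TNNT3 signal. CASQ2 was 6.11 in S21 and 9.63 to 10.06 in the other positive animals. Of the cross-breed controls, K10 stood apart at PPARGC1A probe A_73_100612 (6.41 against 6.60 to 6.68) and at VWF (9.73 against 10.47 to 10.72).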

How the results depend on the processing

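Of the 7 member probes, 6 kept their call in the positive against the cross-breed animals under all 22 alternatives, including the omission of K7 and K8, which was chosen after seeing the data. Between Holstein and cross-breed animals, quantile normalization turned ACTN3 to -0.20, MYH1 probe A_73_117636 to -0.063 and TNNC2 to -0.10, and no normalization turned ACTN3 to -0.54, ATP2A1 to -0.065, MYH1 probe A_73_117636 to -0.20 and TNNC2 to -0.04. The 75th percentile turned CASQ1 to 0.23 in the positive against the Holstein animals. Within shared slides, ACTN3 turned to 0.075 with the 75th percentile and 0.02 without normalization, CASQ1 to 0.007 with normexp, and leaving out single animals gave -0.32 to 0.59 for TNNT3 and -0.66 to 0.002 for CASQ1. The cause was not tested.

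The probes called in the positive against the cross-breed animals (4601) became 9875 without normalization, 1357 with normexp and 7583 without the filter on dim signals. Those in the Holstein against the cross-breed animals (3364) became 8584 without normalization and 1393 with normexp. Those in the positive against the Holstein animals (2914) became 5745 with loess over array pairs, 460 with normexp and 5840 without the filter. The 8 probes in the positive against the unknown animals became 104 with loess over pairs, 37 with quantile normalization, 2 with the 75th percentile, 23 without normalization, 1 with normexp, 32 with the deposited value table, 1393 without the filter, 1326 with probes well above background on at least 4 arrays, 1058 with all 43 arrays in 1 fit, 2 with scan day as a block and 0 to 2 without single animals. Those in the unknown against the cross-breed animals (1707) became 4941 without normalization and 820 with normexp. Within shared slides 0 to 9 probes were called without single animals, the 9 without animal 79.

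The 2 member probes called between Holstein and cross-breed animals became 0 with all 43 arrays in 1 fit, 1 to 3 without single animals (1 without K7) and 1 without K7 and K8. The 2 between unknown and cross-breed animals became 6 without normalization, 1 without the filter, 1 with probes well above background, 0 with slide or scan day as a block, 1 without any one cross-breed animal, 1 without animal 79 and 0 without K7 and K8. The omission of animal 79 was also chosen after seeing the data. TNNT3 in the positive against the Holstein animals also lost its call with loess over pairs, normexp, 1 common fit and either block. No paired analysis was possible because the groups compared share fewer than 2 replicate numbers, which name different animals; slide entered the shared-slide comparison as a term. Dim signals limit CASQ1 most.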
